A study of Mus musculus with 77 samples.

Results

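Blood mRNA of stress-susceptible and control mice of the DBA/2Crl (D2) strain was compared across all 13084 genes of the blood table, which holds 25 mice. The comparison rests on 10 of these mice, 5 susceptible and 5 control, out of 77 samples in the whole series. Groups were taken from the suffix of each mouse's data column (s for susceptible, c for control). The study subjected C57BL/6Crl (B6) and D2 mice to chronic social defeat stress (CSDS) and profiled blood and a brain region that regulates anxiety, the BNST (bed nucleus of the stria terminalis). Both D2 groups were inbred males, given as 8 weeks old on dissection. Susceptible mice had met an unfamiliar aggressive CD-1 resident daily for 10 days and, in a social avoidance test afterwards, had scored more than 1 standard deviation below the same-strain controls. Control mice had lived beside a mouse of their own kind behind a perforated divider, without physical contact. Per the study's methods, the mice profiled were a selection. Susceptible mice were picked for the lowest scores and controls for scores nearest the control mean. Trunk blood was collected about a week after the last defeat. It was whole blood, so every value is a mixture of cell types, and no D2 resilient mouse was analysed here. D2 susceptibility is a class set by behaviour, and no measure of the blood entered it.

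Whole-blood RNA comes from nucleated white cells, from platelets, which carry RNA passed on by megakaryocytes, and from young red cells, which still hold globin mRNA. A change in a blood transcript can therefore follow either the level within a cell type or the number of such cells. The study asked whether blood shows the stress response it had looked for in the BNST, with genes of mitochondria and of translation among its interests. In mitochondria, complexes of the inner membrane pass electrons to oxygen and drive ATP synthase.

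The sample labels of mice ED4_1 and ED4_15 give the opposite group from their data columns: the column puts ED4_1 among the susceptible mice and ED4_15 among the controls. Results are therefore given with the column groups and again without these 2 mice. The column groups hold control mice ED3_12, ED4_15, ED6_38, ED6_39 and ED6_40 and susceptible mice ED3_4, ED4_1, ED4_3, ED4_4 and ED6_5, and values of single mice are listed in this order. The start of the name was unevenly spread, with 3 of the controls but 1 of the susceptible mice named ED6, and 1 of the controls but 3 of the susceptible mice named ED4. The study collected its mice in several cohorts, but whether ED3, ED4 and ED6 stand for cohorts is not given in the sources used here. Between 11155167 and 15281405 reads fell on the measured genes in the D2 mice, of which the top 10 genes held 22.8% to 30.9%. Rank correlations between pairs of mice lay between 0.941 and 0.986 across genes, which are not independent replicates.

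D2 susceptible mice differed from D2 controls at more genes with lower than with higher levels, but no single gene passed an adjustment over all genes. A call, with the thresholds that the study used, needed an unadjusted p under 0.05 in limma and a change of 1.2-fold or more. Levels are in log2 CPM, read counts scaled to library size on a log2 scale. Of 13084 genes, 890 (6.80%) were called, 316 (2.42%) higher and 574 (4.39%) lower in susceptible mice. At an unadjusted p under 0.05 alone, limma gave 915 genes, and at an adjusted p under 0.05 it gave 0. The smallest adjusted p was 0.413. A fit with weights on single values also left 0 genes at an adjusted p under 0.05, and a fit with a quality weight for each mouse left 5, Ramp1, Cacna1e, Ndufs4, Bcas3os1 and Pdk1. The median log2 fold change over all genes was -0.01.

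Without mice ED4_1 and ED4_15, 519 genes (3.97%) were called, 166 (1.27%) higher and 353 (2.70%) lower. In simulated data with genes drawn independently, 4.7% of unchanged genes were called with all mice and 4.58% without these 2 mice. The share of 3.97% does not exceed the latter. Genes of real mice can rise and fall together, which moves the share called by chance up or down. The simulated shares therefore cannot decide whether either count of calls exceeds chance. Both calculations called 432 genes in the same direction, 138 higher and 294 lower (3.30% of all genes), which is 48.5% of the 890 and 83.2% of the 519. With the groups of the sample labels in place of the columns, 206 genes (1.57%) were called, 89 (0.680%) higher and 117 (0.894%) lower, of which 57 were among the 890. Groups did not overlap at 146 genes (1.12%) with the column groups and at 378 genes (2.89%) without the 2 mice, where each group has 4 mice. Random splits of the mice would put groups apart at a share of 0.00794 of genes in the former case and 0.0286 in the latter. Single mice moved the count of 890 to 434 (without ED4_1), 474 (without ED6_5), 577 (without ED6_38) and 1339 (without ED4_3). Without ED6_38 or without ED6_5 the balance of directions turned, to 327 higher and 250 lower in the former case and 267 higher and 207 lower in the latter. Without ED4_1, one of the mice with conflicting labels, there were 147 higher and 287 lower. With the start of the mouse name as a covariate, 698 genes were called, 183 higher and 515 lower.

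**Figure D1:**
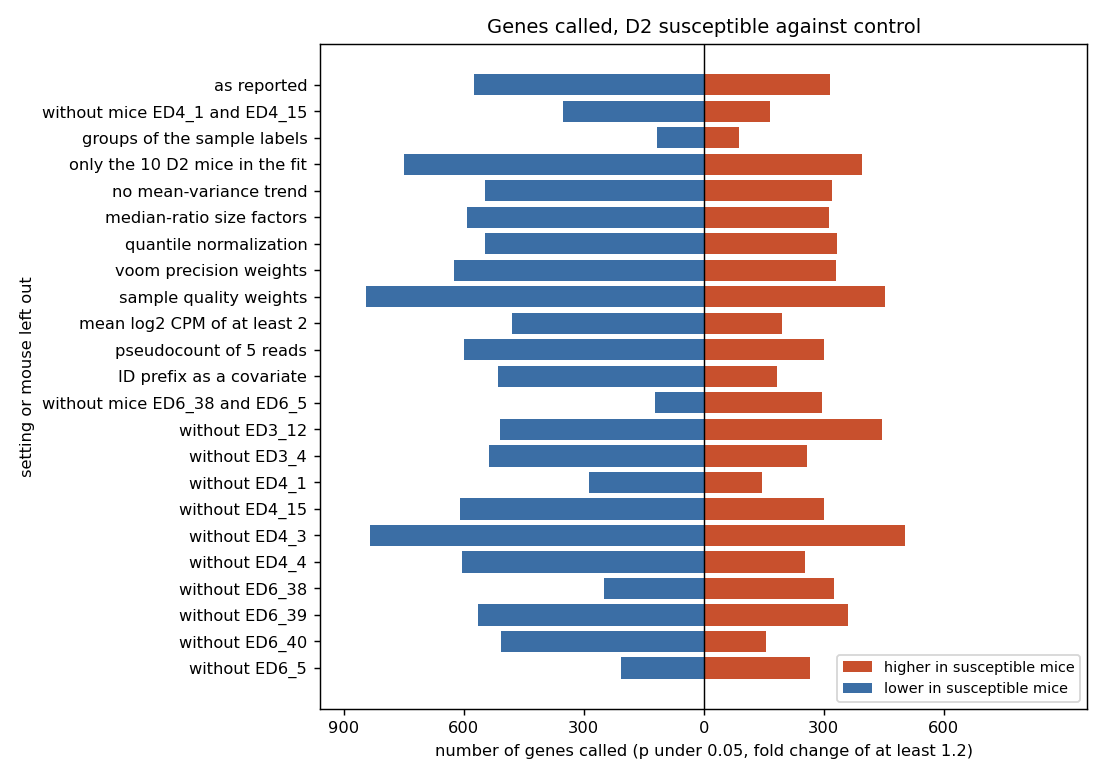
Number of genes called in D2 susceptible against control mice (horizontal axis) under each setting or with 1 or 2 mice left out (vertical axis); bars to the right count genes higher in susceptible mice and bars to the left genes lower. The reported groups gave 316 higher and 574 lower, and the bars to the left were shortest with the groups of the sample labels, at 117, and without ED6_38 and ED6_5, at 121.

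Single mice held most of the extreme values among the lower calls. Control mouse ED6_38 had the highest value of the 10 mice at 465 of the 574 genes called lower (81.0%), against 13.2% of all genes. Susceptible mouse ED6_5 had the lowest value at 426 of them (74.2%), against 10.7% of all genes. Both mice carry the same ED6 start of the name, and neither is among those with conflicting labels. Among the 316 genes called higher, control mouse ED6_40 was lowest at 191 (60.4%, against 21.0% of all genes) and susceptible mouse ED4_1 was highest at 168 (53.2%, against 15.3% of all genes). Called genes were chosen because the groups lie apart, so their extremes fall mostly in a set group. Part of each contrast with all genes follows from that choice. Leaving out both ED6_38 and ED6_5, which was chosen after seeing the data, left 418 genes (3.19%), 297 higher and 121 lower, and 289 of them were among the 890 with the same direction.

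**Figure D2:**
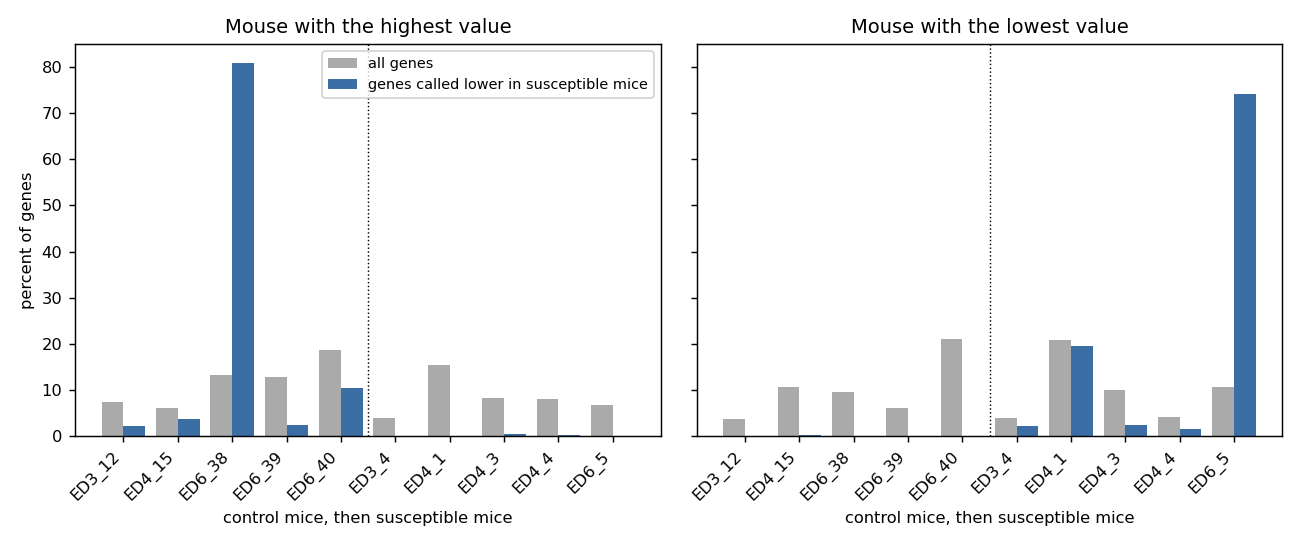
Percent of genes (vertical axis) at which each of the 10 D2 mice (horizontal axis, 5 controls then 5 susceptible mice) had the highest value (left) or the lowest value (right), for all 13084 genes in grey and for the 574 genes called lower in blue. ED6_38 stood highest at 81.0% and ED6_5 lowest at 74.2% of the genes called lower.

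The 20 genes described first were those with the smallest p in each direction among genes called both with and without ED4_1 and ED4_15, so their values are a description. All 20 were also called, in the same direction, without any single D2 mouse, without ED6_38 and ED6_5 together, and with the start of the name as a covariate. With the groups of the sample labels, 8 of the 20 were called. The smallest p of the whole comparison belonged to Ramp1 (ENSMUSG00000034353, chromosome 1 of GRCm38 from 91179822 to 91225196), a membrane protein that makes the calcitonin receptor-like receptor respond to calcitonin gene-related peptide. Ramp1 stood at 4.91, 4.77, 5.31, 4.72 and 5.06 log2 CPM in the control mice and at 4.11, 3.61, 4.53, 4.33 and 3.43 in the susceptible mice. Every susceptible mouse lay below every control mouse, with ED6_5 and ED4_1 the lowest. The log2 fold change was -0.95 (SE 0.19, unadjusted p = 3.16e-05 and adjusted p = 0.413 in limma), and it was -0.90 without ED4_1 and ED4_15 and -0.72 without ED6_38 and ED6_5.

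A further 4 of the 10 lower genes are given in more detail. Pdk1 (chromosome 2 from 71873224 to 71903858), a kinase that shuts off pyruvate dehydrogenase, stood at 7.13, 6.90, 7.32, 7.30 and 7.06 log2 CPM in control mice and 6.56, 6.41, 6.82, 6.80 and 6.07 in susceptible mice. The groups did not overlap and ED6_5 was the lowest. Pdk1 fell by 0.61 on the log2 scale (SE 0.13, limma p = 0.000122, exact permutation p = 0.00794). Ndufs4 (chromosome 13 from 114287795 to 114388258), an accessory subunit of respiratory complex I, stood at 5.74, 5.62, 5.99, 5.61 and 5.58 log2 CPM in control mice and 5.06, 4.80, 5.36, 5.14 and 4.82 in susceptible mice. Again no susceptible mouse reached a control mouse. Its log2 fold change was -0.67 (SE 0.15, limma p = 0.000205, exact permutation p = 0.00794), and -0.64 without ED4_1 and ED4_15. Prkab1 (chromosome 5 from 116013586 to 116024508), a regulatory subunit of the AMP-activated protein kinase, stood at 4.16, 4.12, 4.53, 4.25 and 4.34 log2 CPM in control mice and 3.82, 3.70, 3.98, 3.79 and 3.75 in susceptible mice. This gene had a narrow spread within each group, and the groups were apart. It fell by 0.47 on the log2 scale (SE 0.11, limma p = 0.000211, exact permutation p = 0.00794). Samm50, part of the machinery that inserts proteins into the outer mitochondrial membrane, ran from 5.68 to 6.12 log2 CPM in control mice and from 5.04 to 5.65 in susceptible mice, a log2 fold change of -0.43 (SE 0.11).

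The remaining lower genes were Bcas3os1, an antisense RNA of the Bcas3 locus (log2 fold change -1.70, SE 0.37), Cds1, which makes CDP-diacylglycerol for phospholipid synthesis (-1.05, SE 0.24), the zinc finger gene Zfp827 (-0.84, SE 0.21), Pogk, a KRAB gene derived from a transposon (-0.83, SE 0.22), and Ginm1, a membrane glycoprotein (-0.58, SE 0.15). Among the 10 lower genes, the groups did not overlap at 8, the exceptions being Ginm1, where ED4_3 reached the control mice, and Pogk, where ED4_3 and ED4_4 did. ED6_38 was the highest mouse at all 10 and ED6_5 the lowest at 7. Beside these genes, the mean level of the 25 measured platelet genes ran from 7.78 to 8.66 log2 CPM in control mice and from 6.38 to 8.00 in susceptible mice, also with ED6_38 highest and ED6_5 lowest, and its part in the lower genes was not tested. Reads of an antisense RNA and of its partner can be told apart only with a count that uses strand. The library kit keeps strand, but the setting of the count is not given in the sources used here.

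The other 10 of the 20 genes were higher in the susceptible mice. Pcyt2 (chromosome 11 from 120610087 to 120617936), which makes CDP-ethanolamine for phosphatidylethanolamine, stood at 2.40, 2.28, 2.63, 2.47 and 2.28 log2 CPM in control mice and 2.81, 3.13, 2.83, 3.08 and 2.85 in susceptible mice. All susceptible mice lay above all control mice. Pcyt2 rose by 0.53 on the log2 scale (SE 0.13, limma p = 0.000345, exact permutation p = 0.00794) and was 0.60 higher without ED6_38 and ED6_5. Jak3 (chromosome 8 from 71676296 to 71690575), the kinase bound to the common gamma chain of lymphocyte cytokine receptors, stood at 2.17, 2.12, 2.47, 2.52 and 1.71 log2 CPM in control mice and 3.03, 3.20, 2.60, 3.14 and 2.92 in susceptible mice. Here ED4_3 was the lowest susceptible mouse and ED6_40 the lowest control, and the groups did not overlap. Jak3 rose by 0.78 (SE 0.21, limma p = 0.00101, exact permutation p = 0.00794). Zfp422, a zinc finger gene, stood at 1.73, 1.85, 2.03, 1.87 and 1.83 log2 CPM in control mice and 2.59, 2.60, 2.35, 2.41 and 2.38 in susceptible mice, again without overlap, and rose by 0.61 (SE 0.15, limma p = 0.000391, exact permutation p = 0.00794).

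Dus3l, a dihydrouridine synthase of tRNA (0.65, SE 0.16), Rpp21, a subunit of RNase P (0.42, SE 0.12), Sh3pxd2a, a scaffold of podosomes (0.83, SE 0.23), and Dnajc4, a J-domain protein (0.76, SE 0.21), were the further higher genes with a median of at least 47 reads per D2 mouse. Cacna1e, Slco5a1 and Col8a1 had log2 fold changes of 1.95, 1.93 and 1.96, but their median was 3, 7 and 15 reads. The lowest value of Cacna1e and of Slco5a1 was 0 reads, so their fold changes depend on the 0.5 reads added before the log. Cacna1e had an SD of 1.65 in D2 controls but 0.18 in B6 controls, and limma pools the spread over both strains. Its limma p was 0.000459, while its exact permutation p was 0.0397. Groups did not overlap at 7 of the 10 higher genes, all except Cacna1e, Slco5a1 and Dnajc4. For 5 mice against 5, groups apart give an exact two-sided permutation p of 0.00794, the smallest that 252 splits allow, and without the 2 mice the smallest is 0.0286. That p belonged to each of the 15 genes of both directions whose groups were apart.

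**Figure D3:**
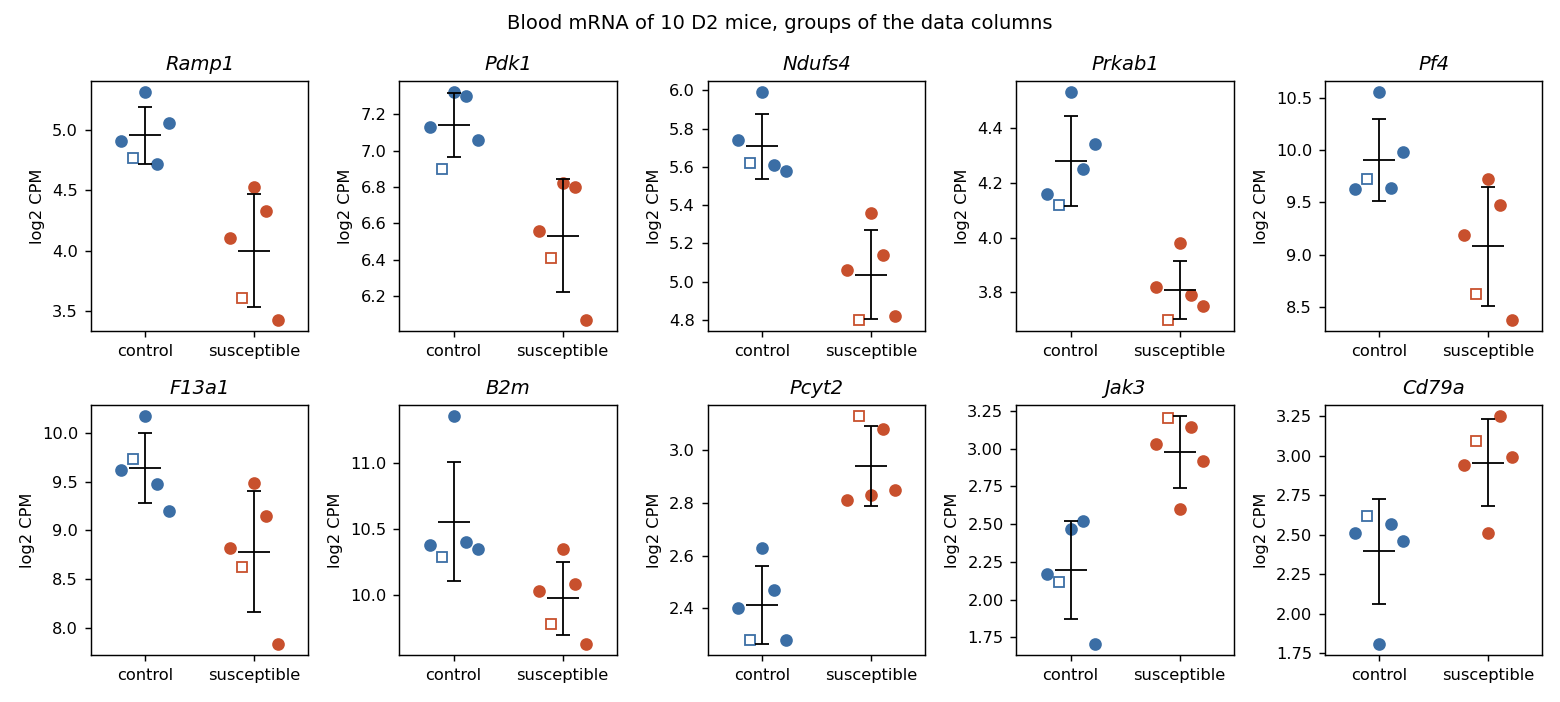
Level of 10 genes (log2 CPM, vertical axes) in each D2 control mouse (blue) and susceptible mouse (orange); squares with a white centre are ED4_1 and ED4_15, black marks are group means and bars are SD over 5 mice. Ramp1, Pdk1, Ndufs4, Prkab1, Pcyt2 and Jak3 had no overlap between groups, while the groups overlapped for Pf4, F13a1, B2m and Cd79a.

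Platelet genes were lower on average in susceptible mice. Of 25 measured platelet genes, 14 fell and 0 rose (over all genes 4.39% fell), and 24 had a log2 fold change below 0 (over all genes 51.2%). The median log2 fold change was -0.72, against -0.01 over all genes. The mean of the list stood at 7.84, 7.79, 8.66, 7.78 and 7.93 log2 CPM in control mice and 7.49, 6.98, 8.00, 7.57 and 6.38 in susceptible mice. ED4_3 lay above 4 of the 5 control mice, so the groups overlapped, while ED6_38 stood far above the other controls and ED6_5 below the other susceptible mice. F13a1, the A subunit of clotting factor XIII, stood at 9.62, 9.73, 10.17, 9.47 and 9.20 log2 CPM in control mice and 8.82, 8.62, 9.48, 9.15 and 7.84 in susceptible mice. Only ED4_3 among the susceptible mice reached the controls. F13a1 fell by 0.86 on the log2 scale (SE 0.30, limma p = 0.0093, exact permutation p = 0.0238), and by 0.79 without ED4_1 and ED4_15. Gng11, a G protein gamma subunit (-0.93), Rgs18, which ends G protein signals (-0.87), P2ry12, the ADP receptor on which platelet aggregation depends (-0.91), and Clec1b, the podoplanin receptor (-0.86), fell with both sets of mice.

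Further members were called with all 10 mice only. Pf4 (chromosome 5 from 90772435 to 90773383), the chemokine of the platelet alpha granule, stood at 9.63, 9.72, 10.55, 9.64 and 9.98 log2 CPM in control mice and 9.19, 8.63, 9.72, 9.48 and 8.38 in susceptible mice. Its groups overlapped through ED4_3. It fell by 0.82 (SE 0.33, limma p = 0.0204, exact permutation p = 0.0317), and had a log2 fold change of -0.75 (limma p = 0.0583, exact permutation p = 0.0857) without ED4_1 and ED4_15. The same held for Ppbp, another chemokine of the granule (-0.87), Itga2b, the alpha chain of the fibrinogen receptor (-0.86), Gp6, a collagen receptor (-0.87), Mmrn1, Nrgn, Tubb1, Gp5 and Treml1. Itgb3, the beta chain of the fibrinogen receptor, had a log2 fold change of -0.72, and Selp, P-selectin, the one member with a value above 0, had 0.19, and neither was called.

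Single mice decided the platelet calls. The number of the 25 genes called lower was 5 without ED4_1 and ED4_15, 0 with the groups of the sample labels, 1 without ED6_5, 2 without ED6_38, 4 without ED4_1, 9 without ED3_12 and 22 without ED4_3. Without both ED6_38 and ED6_5 it was 0, and the median log2 fold change was -0.30. Without ED4_1 and ED4_15 the median was -0.73, and with the groups of the sample labels it was -0.42. In these bulk samples, fewer platelets and less RNA per platelet cannot be told apart.

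The promoters of Pf4 and Itga2b are given because both are defining platelet genes that were called lower with all 10 mice. Transcription factors of the GATA and ETS families act at platelet genes, but their part here was not tested. Both sequences are those of the reference genome, and the sequence of the D2 strain was not examined. Each runs 5′ to 3′ from 250 bases before to 50 bases after the gene start in RefSeq on GRCm38.p6, Pf4 at chr5:90772185-90772484 on the plus strand and Itga2b at chr11:102469834-102470133 on the minus strand. Capitals mark the letters GATAA (GATA) and GGAAG (ETS), searched on both strands.
Pf4: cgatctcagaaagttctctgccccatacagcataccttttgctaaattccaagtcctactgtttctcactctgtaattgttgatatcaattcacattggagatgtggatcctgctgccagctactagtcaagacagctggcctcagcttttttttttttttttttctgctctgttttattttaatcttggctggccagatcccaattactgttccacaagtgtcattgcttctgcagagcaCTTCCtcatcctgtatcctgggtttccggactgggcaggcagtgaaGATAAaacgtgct
Itga2b: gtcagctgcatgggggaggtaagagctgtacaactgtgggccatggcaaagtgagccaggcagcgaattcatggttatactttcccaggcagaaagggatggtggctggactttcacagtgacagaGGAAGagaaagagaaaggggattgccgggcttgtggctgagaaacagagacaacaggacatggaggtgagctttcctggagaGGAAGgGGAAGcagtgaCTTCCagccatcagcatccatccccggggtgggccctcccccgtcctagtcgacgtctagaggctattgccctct
The Pf4 window holds 1 match to GATAA and 1 to GGAAG, and the Itga2b window 0 and 4. Over all 27025 promoters of this length, 25.8% hold GATAA and 71.1% hold GGAAG. Over the 9679 promoters of measured genes the shares are 16.6% and 76.1%. Many promoters thus hold these letters, and a match is no binding site by itself. A share over the platelet list is not given, since the table holds a promoter for only 18 of the 25 genes.

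B cell genes held more higher calls than the other blood cell lists. Of 39 measured B cell genes, 11 (28.2%) rose and 0 fell (over all genes 2.42% rose), with a median log2 fold change of 0.25. Cd79a, a signalling chain of the B cell receptor (chromosome 7 from 24897381 to 24902197), stood at 2.51, 2.62, 1.81, 2.57 and 2.46 log2 CPM in control mice and 2.94, 3.09, 2.51, 3.25 and 2.99 in susceptible mice. ED4_3 was the one susceptible mouse within the control range, and ED6_38 was the lowest of the 10 mice. Cd79a rose by 0.56 (SE 0.23, limma p = 0.0202, exact permutation p = 0.0238) and by 0.59 (limma p = 0.035, exact permutation p = 0.0571) without ED4_1 and ED4_15. Siglecg, an inhibitory lectin of B cells, rose by 0.64 (SE 0.23), also with both sets of mice. Cd37, Pou2af1, Cr2, Blnk, Cd72, Cd22, H2-Ob and Fcer2a rose with all 10 mice, by 0.40 to 0.52, but had p-values above 0.05 without ED4_1 and ED4_15.

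Of the 39 B cell genes 38 had a log2 fold change above 0 (over all genes 48.8%), but defining markers were among those not called. Ms4a1 (CD20) had a log2 fold change of 0.20, Cd79b of 0.26 and Ighm, the heavy chain of IgM, of 0.25, and none was called. The mean of the list ran from 4.78 to 5.21 log2 CPM in control mice and from 4.78 to 5.70 in susceptible mice, so the groups overlapped, and only ED4_1 and ED4_4 lay above every control. The number called was 3 without ED4_1 and ED4_15, 0 with the groups of the sample labels, and 0 with the start of the mouse name as a covariate. Leaving out 1 mouse gave 2 (without ED4_4 or ED6_40), 3 (without ED4_1 or ED6_38), 7 (without ED6_39) and up to 15 (without ED4_3). Without ED6_38 and ED6_5, 4 were called. Plasma cell genes gave 0 calls of 10, with a median of 0.26.

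Calls among markers of the other blood cells are set beside 2.42% of all genes higher and 4.39% lower. Of 35 neutrophil genes and 36 monocyte genes 0 were called in either direction. S100a8 and S100a9, the calprotectin subunits of neutrophils, had log2 fold changes of -0.04 and -0.02, and Csf1r and Ccr2, receptors of monocytes, of -0.03 and 0.13. Among 39 T cell genes 1 rose, Cxcr6, a chemokine receptor of tissue-homing T cells, by 0.69, and 1 fell, Trdc, the constant region of the delta T cell receptor, by 0.88. The shared T cell receptor chains Cd3d (-0.17), Cd3g (-0.03) and Cd247 (-0.02) had no call. Cxcr6 was called without ED4_1 and ED4_15 too, but not without ED3_12 (0.50), ED4_15 (0.61) or ED4_3 (0.45), and Trdc was not called without ED4_1 and ED4_15 (-0.73). Of 36 NK and cytotoxic genes 2 (5.56%) were called lower, Cd7 and Klra8. Klra8 had 0 to 4 reads per D2 mouse, with a median of 0, beside a mean of 3.16 log2 CPM in B6 controls. Its call rests on almost no reads, which other Klra genes can share, and shows no fall of an NK receptor. Ncr1, the NK receptor NKp46, had a log2 fold change of 0.04. Among 48 erythroid genes 3 (6.25%) fell, Slc25a38, a glycine carrier of heme synthesis (-0.52), Tal1 (-0.60) and Hba-a2 (-1.0). Hba-a2 had a median of only 4 reads in the D2 mice, its groups overlapped, and it was not called without ED4_1 and ED4_15 (-0.76). It shares most of its sequence with Hba-a1 (-0.21), so its reads are uncertain. Hbb-bs, the main beta globin gene, had a log2 fold change of -0.20 with mice from 13.95 to 15.61 log2 CPM. Globin had been depleted from these libraries. Dendritic cell genes gave 1 call of 14 (7.14%), Clec9a, a receptor for dead cells, which fell by 0.79. Eosinophil and basophil genes gave 0 of 20.

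**Figure D4:**
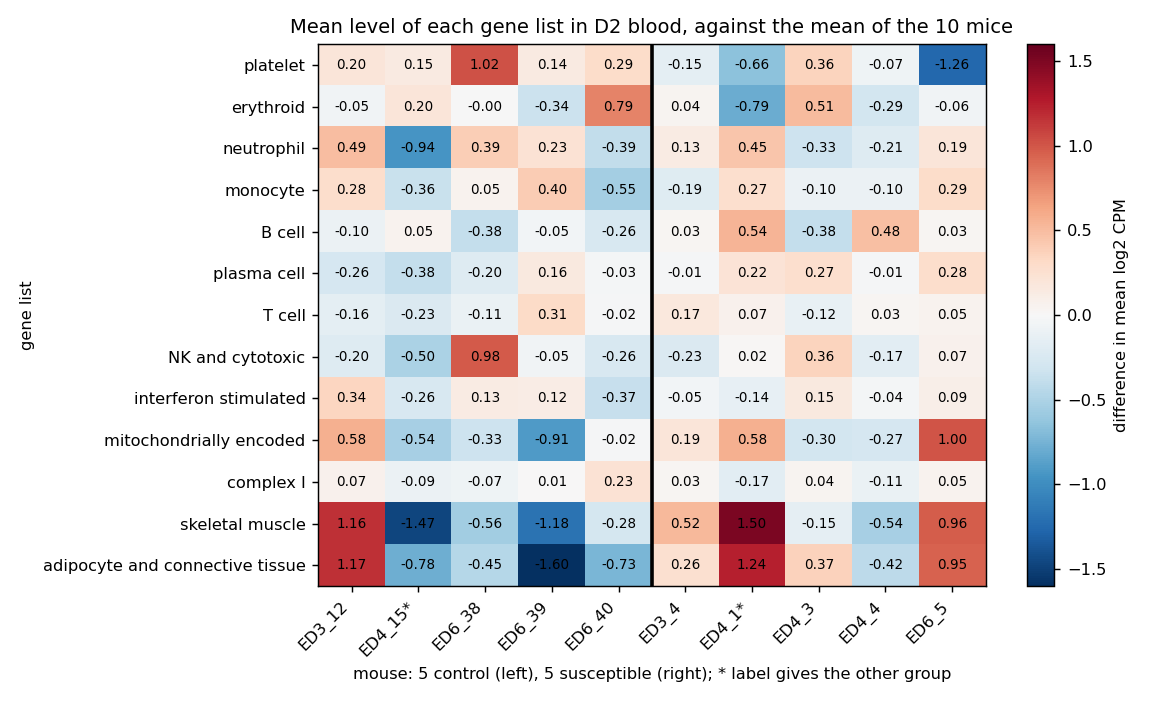
Mean level of 13 gene lists (vertical axis) in each D2 mouse (horizontal axis), as the difference in mean log2 CPM from the mean of the 10 mice; control mice are left of the line and an asterisk marks ED4_1 and ED4_15. The platelet list was highest in ED6_38 and lowest in ED6_5, and the muscle and adipocyte lists were high in control mouse ED3_12 as well as in susceptible mice ED4_1 and ED6_5.

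Calls among nuclear genes of oxidative phosphorylation were few, all lower, and near the share over all genes (4.39% called lower). Of 37 complex I subunits 2 (5.41%) fell, Ndufs4 and Ndufa4 (-0.49), and the list's median was -0.03. Of 25 subunits of complexes II to IV 2 (8.00%) fell, Cox6b1 and Cox5a, with a median of -0.06. Cox6b1, a small subunit of cytochrome c oxidase, stood at 5.63, 5.77, 6.16, 5.70 and 5.80 log2 CPM in control mice and 5.53, 5.26, 5.56, 5.45 and 5.19 in susceptible mice. The groups were apart, with ED4_3 closest to the controls. Cox6b1 fell by 0.41 (SE 0.14, limma p = 0.00618, exact permutation p = 0.00794), and was not called without ED6_38 and ED6_5 (-0.28). ATP synthase gave 0 calls of 16, with a median of -0.08. Log2 fold changes lay below 0 at 23 of the 37 complex I genes and 17 of the 25 genes of complexes II to IV. The same held for 15 of the 16 ATP synthase genes, beside 51.2% of all genes. Genes of a list come from the same mice, so these counts are a description. The 7 measured transcripts of the mitochondrial genome had log2 fold changes from 0.30 (mt-Nd4) to 0.60 (mt-Nd1), with a median of 0.53 and 0 calls. Their mean ran from 6.91 to 8.39 log2 CPM in control mice and from 7.52 to 8.82 in susceptible mice. Without ED4_1 and ED4_15 their median was 0.32, and with the groups of the sample labels it was -0.03.

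Other mitochondrial and translation lists held 0 to 2 calls each, beside 6.80% of all genes called in either direction. Idh3b, a subunit of the NAD-dependent isocitrate dehydrogenase, stood at 4.85, 4.60, 4.86, 4.83 and 4.23 log2 CPM in control mice and 5.06, 5.23, 4.79, 5.11 and 5.13 in susceptible mice. ED4_3 was the one susceptible mouse within the control range. Idh3b rose by 0.39 (SE 0.13, limma p = 0.00544, exact permutation p = 0.0317), the 1 call among 19 genes of the TCA cycle. Among 76 genes of the mitochondrial ribosome 1 rose and 1 fell, the latter Mrpl18 (-0.31). Of 82 cytosolic ribosomal protein genes 0 were called, with log2 fold changes below 0 at 81 of them and a median of -0.12. Among 41 translation factors Eif3h fell by 0.32, and among 36 proteasome genes Psmd11 fell by 0.34. The study named 9 molecules across its BNST data, of which 7 were measured in blood. Adcy5, an adenylyl cyclase, was the one called, with a log2 fold change of -0.64, and it was not called without ED4_1 and ED4_15 (-0.44). It was also not called without ED3_4 (-0.61), ED4_1 (-0.46), ED4_15 (-0.61), ED6_38 (-0.51), ED6_40 (-0.62) or ED6_5 (-0.59). Cycs (0.19), Glud1 (0.05), Atp6v1e1 (-0.09), Qdpr (0.16), Atp2b1 (-0.01) and Ppp3ca (-0.02) were not called.

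**Figure D5:**
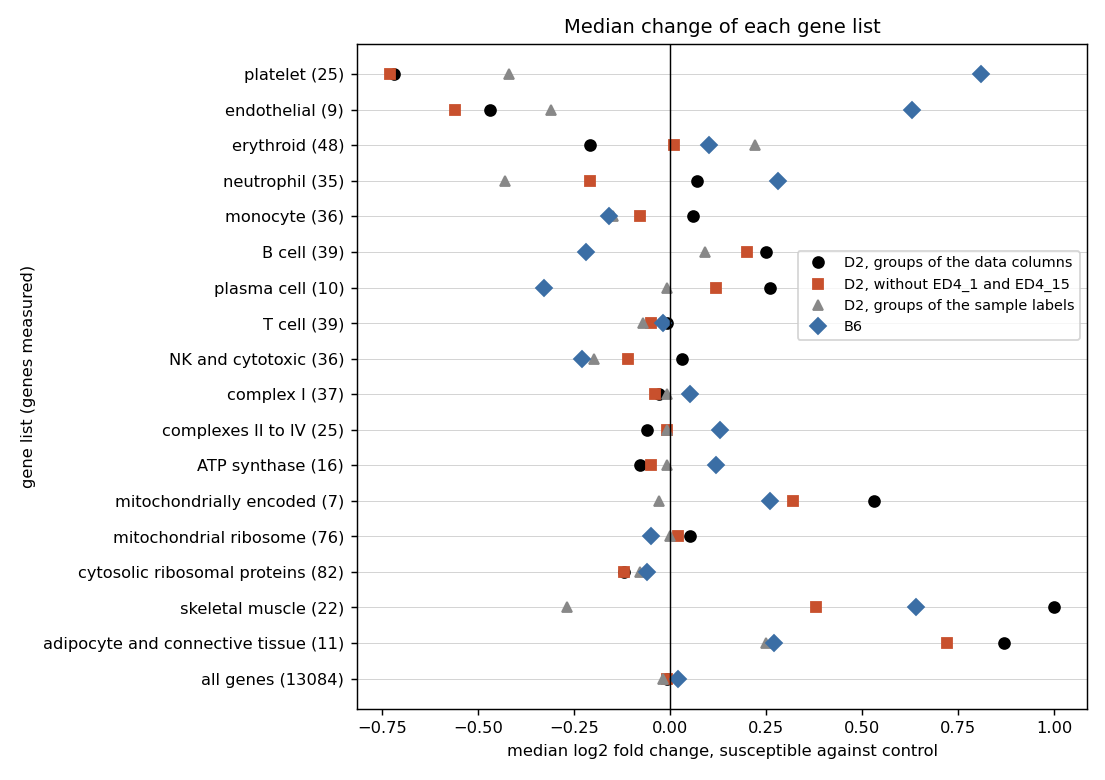
Median log2 fold change of susceptible against control mice (horizontal axis) for gene lists (vertical axis, with the number of genes measured) in D2 mice with the column groups, without ED4_1 and ED4_15 and with the label groups, and in B6 mice. The platelet median was -0.72, -0.73 and -0.42 in D2 and 0.81 in B6, while the nuclear respiratory complexes had D2 medians between -0.08 and -0.03 with the column groups.

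Among immune and stress response lists, 3 of 50 interferon-stimulated genes (6.00%), 3 of 29 genes of antigen presentation (10.3%) and 2 of 23 genes of hypoxia and glycolysis (8.70%) were called, beside 6.80% of all genes. Ifit2, an interferon-induced RNA-binding protein, stood at 6.90, 6.54, 7.22, 6.75 and 6.53 log2 CPM in control mice and 6.14, 5.76, 6.64, 6.38 and 5.30 in susceptible mice. ED4_3 was the one susceptible mouse that reached the controls. Ifit2 fell by 0.75 (SE 0.24, limma p = 0.00496, exact permutation p = 0.0238). Among 50 interferon-stimulated genes the GTPase Igtp also fell (-0.43) and the antiviral GTPase Mx2 rose (0.60), neither called without ED4_1 and ED4_15. B2m, the light chain of class I MHC, fell by 0.59 and H2-DMb1, a peptide exchange factor of class II MHC, rose by 0.66, with H2-Ob the further call among 29 genes of antigen presentation. The call of B2m was lost without ED4_1 (-0.54), ED6_38 (-0.38) or ED6_5 (-0.50). Among 23 genes of hypoxia and glycolysis Pdk1 and Pkm, the muscle pyruvate kinase (-0.44), fell. Glucocorticoid-responsive genes (35 measured), immediate early genes (21) and heat shock genes (17) gave 0 calls, with medians of 0.05, 0.13 and -0.10. Dut, which clears dUTP, was the 1 call among 43 cell cycle genes and fell by 0.61.

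Markers of solid tissue were present in the blood libraries at levels that varied between mice. Of 22 skeletal muscle genes 5 (22.7%) rose, Tnnt3, Tcap, Atp2a1, Pvalb and Acta1, and of 11 adipocyte and connective tissue genes 3 (27.3%) rose, Cfd, Lum and Adipoq, against 2.42% of all genes. Acta1, the actin of skeletal muscle, stood at 5.10, 2.10, 2.51, 2.03 and 3.81 log2 CPM in control mice and 4.29, 5.19, 3.59, 3.29 and 4.90 in susceptible mice. The highest control, ED3_12, lay above all susceptible mice but ED4_1, and the groups overlapped. The log2 fold change was 1.14 (SE 0.55, limma p = 0.0496, exact permutation p = 0.151), and 0.66 (exact permutation p = 0.457) without ED4_1 and ED4_15. None of the muscle or adipocyte genes was called without these 2 mice. Without ED3_12, 15 muscle and 6 adipocyte genes were called, and without ED4_4 11 and 7. The muscle count was 1 without ED4_1, ED4_15, ED6_39 or ED6_5. The adipocyte count was 0 without ED4_1 and 1 without ED4_15, ED6_39 or ED6_5. Of 9 measured endothelial genes Pecam1, an adhesion molecule that platelets also carry, fell by 0.60, a call that was lost without ED6_38 (-0.46) or ED6_5 (-0.37). The myelin gene Mbp (0.01) and the astrocyte genes Gfap (-0.70) and Slc1a2 (0.53) were not called. Slc1a2 had a median of only 3 reads in the D2 mice, and its lowest value was 0 reads. Whether the reads of these genes came from brain tissue or from blood cells was not tested.

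In B6 mice the same comparison pointed the other way for many of these genes. It used 5 susceptible and 5 control B6 mice in the same limma fit, with controls of their own, and called 667 genes (5.10%), 465 (3.55%) higher and 202 (1.54%) lower. Per the study's methods, contact with the aggressor was on average shorter for D2 than for B6 mice. The border of susceptibility was also set separately for each strain. Strain and these differences in treatment and class cannot be told apart here. Both strains called 162 genes, which is 18.2% of the D2 calls and 24.3% of the B6 calls, and 154 of them had opposite directions. Without ED4_1 and ED4_15, 78 genes were shared and 72 had opposite directions. Without ED6_38 and ED6_5 only 19 were shared (4.55% of 418 D2 calls and 2.85% of the B6 calls), 16 of them with opposite directions. The difference between the strains' fold changes (D2 minus B6) was called at 1321 genes (10.1%), 342 (2.61%) higher and 979 (7.48%) lower, and 0 passed an adjusted p under 0.05, the smallest being 0.224. At an unadjusted p under 0.05 alone there were 1322. The count was 1070 without ED4_1 and ED4_15, 703 with the groups of the sample labels and 873 without ED6_38 and ED6_5.

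Platelet genes held more calls for this difference than any other list. Of 25 genes 23 were called in D2 minus B6, all with a negative difference (over all genes 7.48%), and the median difference was -1.57. Without ED4_1 and ED4_15 the number was also 23, and without ED6_38 and ED6_5 it was 21, with medians of -1.55 and -1.17. In B6 mice 16 of the 25 rose, with a median log2 fold change of 0.81, beside -0.72 in D2 mice. The mean of the list ran from 6.13 (EC3_15) to 7.75 log2 CPM in B6 controls and from 7.11 to 8.56 in B6 susceptible mice. These groups overlapped too, and fits with single B6 mice left out were not made. The smallest p for D2 minus B6 among genes called without the 2 mice too belonged to Prkab1, whose log2 fold change was -0.47 in D2 and 0.23 in B6 mice (difference -0.70, adjusted p = 0.224 in limma). In B6 mice its values ran from 3.31 to 3.56 log2 CPM in controls and from 3.49 to 3.92 in susceptible mice. Nup210l, a nucleoporin gene, had -0.71 in D2 and 0.77 in B6 mice (difference -1.48), Acot7, an acyl-CoA thioesterase, -0.81 and 0.52 (-1.32), Mtmr14, a phosphoinositide phosphatase, -0.47 and 0.40 (-0.87), and Il15, a cytokine of NK and memory T cells, -0.79 and 0.58 (-1.37). In D2 mice Acot7 and Mtmr14 had no overlap between groups, while Nup210l and Il15 overlapped through ED4_3. The highest control value of Acot7 and Mtmr14 was that of ED6_38.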

How the data were processed

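Total RNA of whole blood, with rRNA and globin depleted, was sequenced from 25 mice in 5 groups of 5. Per their methods, the authors aligned reads to GRCm38 with STAR, counted them on Ensembl exons with HTSeq, removed low-abundance genes and transformed counts with voom. They deposited log2 values (log2 CPM, with 0.5 reads added), each scaled by a library size that differs from the reads of that mouse. Taken back to reads, 100% of the values were whole (to within 1e-04 of a read), and depths are given in these recovered reads. No column of authors' comparisons was used.

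All 25 mice were fitted in 1 model of 5 groups with limma 3.58.1 in R 4.3.3, with empirical Bayes moderation and a mean-variance trend, two-sided, and p-values were adjusted over 13084 genes by the Benjamini-Hochberg method. Calls needed an unadjusted p under 0.05 and a change of 1.2-fold or more. For each gene, limma p-values rest on 1 spread between single mice, pooled over the 5 groups of both strains. The columns, not the labels, set the groups, and 2 mice conflict. Exact permutation tests used every split of the D2 mice. The procedure was tested on simulated data. Symbols (13054 genes) and positions come from GENCODE M21 on GRCm38. Other settings covered the grouping, samples, scaling, weights, filter (mean log2 CPM of at least 2), a pseudocount of 5 reads and single mice.

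The gene lists and the comparison were chosen with earlier results of these data known. Named genes were the 10 with the smallest p in each direction called with and without the 2 mice (1 predicted gene was passed over), up to 4 called members of each of 32 lists, the 5 with the smallest p for D2 minus B6, the study's 9 BNST molecules and the first 4 measured markers of each cell type. Results for 2 genes that this rule named are not reported here. Other members of the lists are named where they were called or as examples chosen after their values were seen. Python 3.11.15, pandas 2.3.3 and matplotlib 3.10.9 made the summaries and figures.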

Additional observations from a re-analysis of the deposited data

Results flagged for a closer look

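In 17 of 196 sets of 5 D2 mice (1 gene or list in 1 group), a single mouse stood far from the others of its group by Dixon's test, where chance gives about 1 in 20. Control mouse ED6_38 was high in Ginm1 (5.76 log2 CPM, next mouse 5.27), B2m (11.36), Dut (5.75), Acot7 (4.93), Mtmr14 (6.20), the platelet genes Ppbp (13.04) and Itgb3 (8.98) and the mean of the platelet list (8.66), and in Klrb1b, an NK receptor (1.01). It was low in Cd79a (1.81). Control mouse ED6_40 was high in Psmd11 (4.97) and low in Siglecg (3.30), and control mouse ED6_39 was high in the T cell receptor chains Cd3g (5.72) and Cd247 (5.77). Control mouse ED4_15 was low in the muscle gene Actn2 (-1.10). Of the susceptible mice, ED4_3 was high in Klrb1b (0.23) and ED4_1 in the adipocyte gene Cfd (1.45). Measures of blood handling or cell counts were not given for these mice, and the causes were not tested.

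Among the 91 named genes, 43 were called for the difference D2 minus B6, and 9 of them had an unadjusted p under 0.001 in limma, none below an adjusted p of 0.05. All 9 differences were negative. They were -0.85 for Ndufs4, -0.70 for Prkab1, -0.82 for Ginm1, -0.75 for Cox6b1, -1.13 for Dut, -1.48 for Nup210l, -1.32 for Acot7, -0.87 for Mtmr14 and -1.37 for Il15, on the log2 scale.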

How the results depend on the processing

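No paired analysis was possible because the labels do not pair mice of the D2 groups. The start of the name, which both groups share unevenly, could be fitted as a block, and gave 698 calls, 183 higher and 515 lower. The count of 890 called genes kept within 1.5 times under the other settings except 519 (without ED4_1 and ED4_15), 206 (label groups) and 418 (without ED6_38 and ED6_5, chosen after seeing the data), and ran from 434 to 1339 with single mice left out. Genes at an adjusted p under 0.05 stayed at 0, also with each mouse left out, except 5 with sample quality weights. Platelet genes called lower (14) were 5, 0, 9 and 0 without the 2 mice, with label groups, after quantile normalization and without ED6_38 and ED6_5, and 1 to 22 with single mice left out. B cell genes called higher (11) were 3, 0, 7, 0 and 4 without the 2 mice, with label groups, without a mean-variance trend, with the start of the name as a covariate and without ED6_38 and ED6_5, and 2 to 15. Muscle genes (5) were 0, 0, 1, 2, 2 and 1 without the 2 mice, with label groups, with sample quality weights, with a mean of at least 2, with 5 reads added and without ED6_38 and ED6_5, and 1 to 15. Adipocyte genes (3) were 0, 0, 1, 0 and 1 under the first 5 of these, and 0 to 7. D2 minus B6 (1321) gave 703 with label groups and 873 without ED6_38 and ED6_5, and 1039 to 1679 with single mice left out. Quantile normalization raised the share of higher calls there from 25.9% to 38%. That difference could not be computed from the 10 D2 mice alone. With label groups 43 of the 52 named genes that were called lost their call, 3 of them with the direction reversed, Acta1 (-0.09), Adipoq (-0.25) and Cfd (-0.10). The causes were not tested.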

Other observations

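Across the D2 mice, ED4_3 differed from the other susceptible mice in the genes that set the groups apart. It was the susceptible mouse nearest to or within the controls for Ramp1 (4.53 log2 CPM), Ndufs4 (5.36), Jak3 (2.60) and the platelet list (8.00), and without it 1339 genes were called, 503 higher and 836 lower. It had the highest level of Cxcr6 (4.95 log2 CPM) among the 10 mice. Fabp4, the fatty acid carrier of adipocytes, was also highest in this mouse (5.29) and in control mouse ED3_12 (5.09).

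The muscle and adipocyte lists went together in single mice of both groups. Their means were 2.67 and 3.77 log2 CPM in control mouse ED3_12, 3.01 and 3.84 in susceptible mouse ED4_1 and 2.47 and 3.55 in susceptible mouse ED6_5, against 0.04 and 1.82 in control mouse ED4_15 and 0.33 and 1.00 in control mouse ED6_39. The mean of the mitochondrially encoded transcripts was also highest in ED3_12 (8.39), ED4_1 (8.39) and ED6_5 (8.82) and lowest in ED6_39 (6.91). No test was made of these values.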
